A study of Homo sapiens with 6 samples.

Results

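The genes described here were 10 markers of the epithelial and the mesenchymal state of a cell, measured in MHCC-97H cells with or without compound 6j. They were the rows of the deposited count table whose symbol was CDH1, EPCAM, KRT8, KRT18 or KRT19 (epithelial), or CDH2, VIM, SNAI2, ZEB1 or ZEB2 (mesenchymal), which gave 10 of 25445 rows. The rule used gene names only, although the list was drawn up with earlier results of these data known. MHCC-97H is an established human hepatocellular carcinoma line with a high capacity to metastasize. The 6j treated group was 3 libraries of cells kept for 16 h with 10 μM of 6j, a sophoridine derivative, and the non-treated group was 3 libraries of the same line kept for 16 h with solvent only. Both groups thus share 1 clonal cell line, 1 time point and 1 culture medium, and the sample labels give the treatment of the non-treated cells as none. Libraries held 31533403 to 38018349 counts, and log2 values of the libraries within a group correlated at r = 0.975 to 0.983 over genes.

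Epithelial cells are joined to each other by E-cadherin (CDH1) and carry a cytoskeleton of paired keratins, in which a type II chain such as KRT8 pairs with a type I chain such as KRT18. Mesenchymal cells use N-cadherin (CDH2) and vimentin (VIM) instead, and are more motile. The transcription factors SNAI2, ZEB1 and ZEB2 bind E-box sequences in promoters such as that of CDH1 and repress epithelial genes, and the microRNAs of the miR-200 family in turn repress ZEB1 and ZEB2.

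In these cells CDH1, EPCAM and KRT19 were at or near 0 counts, whereas VIM, KRT8 and KRT18 were among the most abundant transcripts. With 6j, KRT8 fell by 0.58 on the log2 scale. Of the 7 markers with enough counts, it alone had an adjusted p under 0.05 in edgeR without a block for the replicate number (9.16% of all rows did). It kept this in 2 of the 6 fits that left out a library. KRT18, its partner, and ZEB2 had 6j treated and non-treated libraries that did not overlap, as did KRT8 and 31.7% of all rows. The adjusted p of KRT18 and ZEB2 missed the threshold without the block (0.0661 and 0.126) and passed with it (0.00168 and 0.0391, edgeR's quasi-likelihood test). With the block 26.9% of all rows passed. In DESeq2 without a block KRT18 passed as well (adjusted p = 0.0152), as did 16.2% of all rows. VIM, CDH2, SNAI2 and ZEB1 had overlapping libraries in both groups.

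The labelled cell type was compared with its markers. Of 17 hepatocyte and liver cell markers, 15 had at most 10 counts in any library, among them ALB and AFP, and APOH, TTR and FOXA2 had none. FOXA1 was at 14.4 ± 1.59 CPM (counts divided by the TMM library size, on the usual scale) in non-treated and 15.2 ± 1.95 in 6j treated cells (SD, n = 3), and HNF4A was at 0.970 ± 0.369 and 1.12 ± 0.300. The defining hepatocyte transcripts were thus at or near 0 counts in both groups. The summed CPM of the list was 13.4 to 17.3 in non-treated and 15.2 to 18.2 in 6j treated libraries. Markers of other cells were counted as well. Only 2 hepatocyte, 4 fibroblast and stellate cell, 2 endothelial, 1 leukocyte and 2 cholangiocyte markers had enough counts to be tested by edgeR. By edgeR's quasi-likelihood test and by DESeq2, 0 genes of these lists had an adjusted p under 0.05 (9.16% and 16.2% of all rows did). By edgeR 1 (KRT7) had an unadjusted p under 0.05 (26.2% of all rows). With the replicate block 1 fibroblast and 1 cholangiocyte marker had an adjusted p under 0.05 (26.9% of all rows). The part of these genes in the results was not tested. The 10 fibroblast and stellate cell markers summed to 271 to 331 CPM in non-treated and 250 to 316 in 6j treated libraries, nearly all COL1A1 and COL3A1, while COL1A2, PDGFRA and LRAT had no count. The 5 endothelial markers summed to 2.38 to 6.31 and 2.24 to 4.03 CPM, and the 5 leukocyte markers to 0.285 to 0.517 and 0.476 to 1.02 CPM, with PTPRC and CD3E at 0. The 5 cholangiocyte markers summed to 441 to 552 and 402 to 417 CPM, nearly all KRT7.

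The levels of the 10 markers were put in order in non-treated cells per kilobase of the longest principal transcript of each gene in GENCODE version 29. VIM was highest at 438 CPM per kb, followed by KRT8 at 284.5 and KRT18 at 275. All 3 lay above 99.1% or more of the 19972 genes ranked. VIM was 1.54 times KRT8 on this scale and the libraries of the pair did not overlap, whereas KRT8 and KRT18 overlapped, and they changed places when the length of all exons of a gene was used instead. SNAI2 followed at 42.0 CPM per kb, 6.56-fold below KRT18. CDH2 was at 7.70, ZEB1 at 5.47 and ZEB2 at 1.37 CPM per kb, and no neighbours among SNAI2, CDH2, ZEB1 and ZEB2 overlapped. KRT19 at 0.102 and CDH1 at 0.0560 CPM per kb overlapped, and EPCAM was at 0. ZEB2, the lowest of the mesenchymal markers, was above KRT19 in every non-treated library (lowest 1.31 against highest 0.269 CPM per kb), and its mean was higher than that of 45.6% of all genes.

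**Figure D1:**
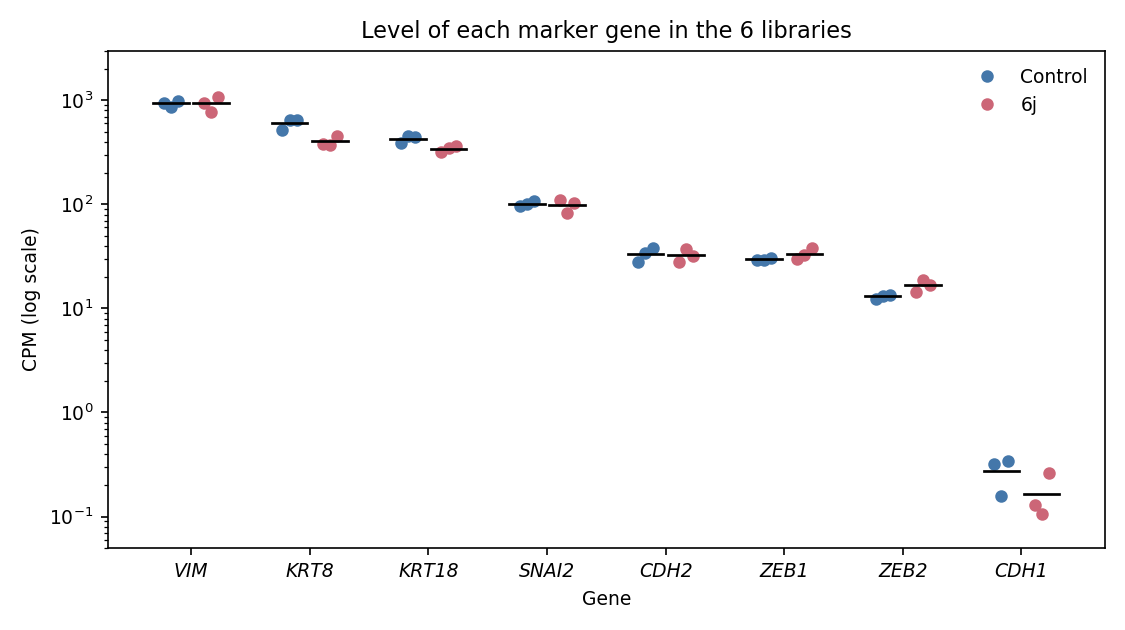
Level of the marker genes in each of the 6 libraries, in CPM on a log axis, with a point per library (blue non-treated, red 6j treated) and a line at the mean of each group (n = 3). VIM, KRT8 and KRT18 are at the top and CDH1 stays at or under 0.345 CPM in every library, and KRT19 and EPCAM are not drawn because they had libraries at 0. The points of KRT8, KRT18 and ZEB2 do not overlap between groups.

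A gene was called a differentially expressed gene (DEG) at a Benjamini-Hochberg adjusted p under 0.05 in edgeR's quasi-likelihood test and a fold change above 1.5. Of the 7 markers tested, 0 were DEGs by edgeR, against 3.6% of the 15957 rows tested. It was 0 as well by DESeq2 (5.38% of rows), by edgeR with a block for the replicate number (6.47%), and by edgeR at an unadjusted p under 0.05 with the same fold threshold (7.12%). With no fold threshold, 1 of 7 markers (KRT8) had an adjusted p under 0.05, against 9.16% of all rows, and 3 of 7 (KRT8, KRT18 and ZEB2) had an unadjusted p under 0.05, against 26.2%. The same 3 markers had groups that did not overlap, against 31.7% of all rows. Shares of the 7 markers near those backgrounds are no result about the markers as a group. With the block, 3 of 7 passed at an adjusted p under 0.05, against 26.9%, and with DESeq2 2 of 7 (KRT8 and KRT18), against 16.2%. CDH1, EPCAM and KRT19 had too few counts to be tested. The labels do not say whether libraries of a group came from separate cultures, so p-values measure only the spread between these libraries.

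**Figure D2:**
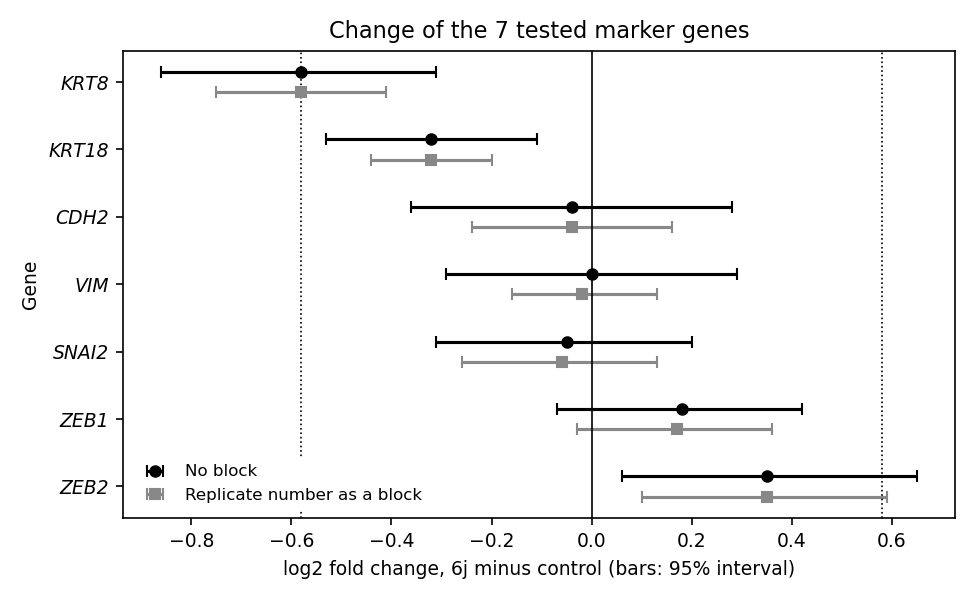
Log2 fold change (6j treated minus non-treated) of the 7 tested markers with 95% intervals, from edgeR without (black) and with (grey) a block for the replicate number, with dotted lines at a 1.5-fold change. KRT8 lies at the lower dotted line at -0.58, KRT18 at -0.32 and ZEB2 at 0.35, and the intervals of CDH2, VIM, SNAI2 and ZEB1 contain 0 in both fits.

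KRT8, the type II keratin of simple epithelia (ENSG00000170421, chromosome 12, 52897187 to 52949954, minus strand, GRCh38), was at 516, 653 and 646 CPM in non-treated replicates 1 to 3 and at 385, 369 and 457 CPM in 6j treated replicates 1 to 3. Each 6j treated library was below each non-treated one, and the closest were 6j treated replicate 3 and non-treated replicate 1. The mean went from 605 ± 77.2 to 404 ± 47.0 CPM (SD, n = 3), and the log2 fold change was -0.58 (SE 0.12, 95% interval -0.86 to -0.31, adjusted p = 0.0211 by edgeR's quasi-likelihood test). KRT8 therefore fell, by 33.3%, and at 1.499-fold stood just under the fold threshold for a DEG. It ranked 671 among all rows by p. The adjusted p passed in 2 of the 6 fits that left out a library, and missed the threshold without non-treated replicate 2 (0.0659), non-treated replicate 3 (0.0689), 6j treated replicate 1 (0.0521) or 6j treated replicate 2 (0.108). With the block the adjusted p was 0.000571. In bulk RNA, fewer cells of a kind and less RNA per cell cannot be told apart.

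KRT18, the type I keratin that pairs with KRT8 (ENSG00000111057, chromosome 12, 52948871 to 52952901, plus strand), was at 388, 456 and 445 CPM in non-treated and at 320.0, 347 and 366 CPM in 6j treated libraries. As for KRT8, non-treated replicate 1 was the lowest of its group and still above every 6j treated library. The log2 fold change of -0.32 (SE 0.09, 95% interval -0.53 to -0.11) did not pass in edgeR's quasi-likelihood test (adjusted p = 0.0661). It passed with the replicate block (adjusted p = 0.00168) and in DESeq2 (adjusted p = 0.0152). KRT18 lies beside KRT8, and an exon of each overlaps an exon of the other on the opposite strand. Whether the counting used strand is not given in the sources used here, so reads from the shared bases cannot be assigned. GENCODE also lists 50 pseudogenes named KRT8P and 68 named KRT18P, none of which has a row in the table, so the counts of both keratins are uncertain to the extent that such copies share reads.

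The balance of the keratin pair was taken as log2 KRT8 minus log2 KRT18 in each library. It was 0.41, 0.52 and 0.54 in non-treated and 0.27, 0.09 and 0.32 in 6j treated replicates 1 to 3, so that the groups did not overlap. The mean went from 0.49 ± 0.07 to 0.22 ± 0.12 (SD, n = 3), a difference of -0.26 (two-sided exact permutation p = 0.1, the smallest p that 3 against 3 libraries can give). Per kilobase, KRT8 was 0.976, 1.05 and 1.07 times KRT18 in non-treated and 0.883, 0.780 and 0.918 times KRT18 in 6j treated libraries. KRT8 was thus the lower of the pair in every 6j treated library and in 1 of the non-treated libraries on the principal transcript scale.

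KRT19, a small type I keratin of ducts and glands (ENSG00000171345, chromosome 17, 41523617 to 41528308, minus strand), had 2, 0 and 13 counts in non-treated and 3, 0 and 0 counts in 6j treated libraries. Most of its counts were those of non-treated replicate 3. The group sums were 15 counts (0.143 CPM, exact Poisson interval 0.0802 to 0.236) and 3 counts (0.0273 CPM, 0.00563 to 0.0797), and the 3 counts are no more than the limit that a count of 0 allows. Such intervals and limits cover counting error only. GENCODE lists 5 pseudogenes named KRT19P, also without a row in the table.

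CDH1 (E-cadherin, ENSG00000039068, chromosome 16, 68737225 to 68835548, plus strand) had 12, 5 and 12 counts in non-treated and 5, 4 and 9 counts in 6j treated libraries. The groups overlapped, and no library was above 0.345 CPM. The sums of 29 counts (0.277 CPM, exact Poisson interval 0.186 to 0.398) and 18 counts (0.164 CPM, 0.0970 to 0.259) gave a ratio of 0.591 for 6j treated to non-treated cells, with a counting interval of 0.309 to 1.10. A change was not detectable at this depth. EPCAM, a surface adhesion molecule of epithelia (ENSG00000119888, chromosome 2, 47345158 to 47387601, plus strand), had 0 counts in all 6 libraries, which allows up to 0.0287 CPM over the non-treated and 0.0273 CPM over the 6j treated libraries (3 counts in each group).

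CDH2 (N-cadherin, ENSG00000170558, chromosome 18, 27950966 to 28177446, minus strand) was far more abundant than CDH1, at 27.8, 34.3 and 37.9 CPM in non-treated and 28.0, 37.2 and 32.0 CPM in 6j treated libraries. The groups overlapped almost fully. The log2 fold change was -0.04 (SE 0.14, 95% interval -0.36 to 0.28, adjusted p = 0.894 by edgeR's quasi-likelihood test), and the interval lay within the 1.5-fold threshold (0.58 on the log2 scale) on both sides. Per kilobase, CDH2 was 98.7, 244 and 124 times CDH1 in non-treated and 243, 397 and 138 times CDH1 in 6j treated libraries. On the log2 scale with a prior count of 2, CDH2 minus CDH1 was 6.70 ± 0.57 in non-treated and 7.25 ± 0.60 in 6j treated cells (SD, n = 3), and the difference of 0.54 did not exceed the spread (two-sided exact permutation p = 0.3, smallest possible 0.1). The values rest on 4 to 12 counts of CDH1 in a library.

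VIM (vimentin, the intermediate filament of mesenchymal cells, ENSG00000026025, chromosome 10, 17228259 to 17237593, plus strand) was at 952, 873 and 979 CPM in non-treated and 949, 766 and 1086 CPM in 6j treated libraries. The 6j treated libraries held both the lowest and the highest value. The means were 935 ± 55.1 and 933 ± 161 CPM (SD, n = 3), with a log2 fold change between them of -0.00 (SE 0.13, 95% interval -0.29 to 0.29, adjusted p = 0.995 by edgeR's quasi-likelihood test). Vimentin made up 99.7% of the summed CPM of VIM, DES, GFAP, PRPH, NES and INA in both groups. Log2 KRT8 minus log2 VIM went from a mean of -0.63 to -1.20, with each 6j treated library below each non-treated one. The corresponding values for KRT18 were -1.12 and -1.43, and there the groups overlapped. Per kilobase, VIM was 1.33 to 1.84 times KRT8 in non-treated and 2.07 to 2.46 times KRT8 in 6j treated libraries.

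SNAI2 (Slug, a zinc finger repressor, ENSG00000019549, chromosome 8, 48917604 to 48921740, minus strand) was at 97.0, 101 and 108 CPM in non-treated and 110.4, 81.9 and 102 CPM in 6j treated libraries. Here too the 6j treated libraries held the lowest and the highest value. The log2 fold change was -0.05 (SE 0.11, 95% interval -0.31 to 0.20, adjusted p = 0.807 by edgeR's quasi-likelihood test). ZEB1, a repressor with zinc fingers at both ends of the protein (ENSG00000148516, chromosome 10, 31318495 to 31529814, plus strand), was at 29.1, 29.5 and 30.4 CPM in non-treated and 29.9, 32.4 and 38.3 CPM in 6j treated libraries. The lowest 6j treated library lay inside the narrow non-treated range, and the log2 fold change was 0.18 (SE 0.11, 95% interval -0.07 to 0.42, adjusted p = 0.363).

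ZEB2, the paralog of ZEB1 (ENSG00000169554, chromosome 2, 144364364 to 144524583, minus strand), was at 12.5, 13.0 and 13.6 CPM in non-treated and 14.5, 18.6 and 16.8 CPM in 6j treated libraries. Each 6j treated library was above each non-treated one. The means were 13.0 ± 0.584 and 16.6 ± 2.05 CPM (SD, n = 3), with a log2 fold change of 0.35 (SE 0.13, 95% interval 0.06 to 0.65). The adjusted p was 0.126 by edgeR's quasi-likelihood test and 0.0391 with the replicate block. Per kilobase, ZEB1 was 3.92 to 4.12 times ZEB2 in non-treated and 3.06 to 4.01 times ZEB2 in 6j treated libraries.

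Libraries of the 2 groups share replicate numbers, and the change was also read within each number. KRT8 differed by -0.42, -0.82 and -0.50 (log2, 6j treated minus non-treated) in replicates 1, 2 and 3, and KRT18 by -0.28, -0.39 and -0.28. Both keratins thus went the same way in all 3 replicates, with the widest gap in replicate 2. ZEB2 differed by 0.22, 0.51 and 0.30, again in 1 direction and again widest in replicate 2. ZEB1 differed by 0.04, 0.13 and 0.33. VIM (0.00, -0.19 and 0.15), CDH2 (0.01, 0.12 and -0.24) and SNAI2 (0.19, -0.31 and -0.08) did not keep 1 direction.

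**Figure D3:**
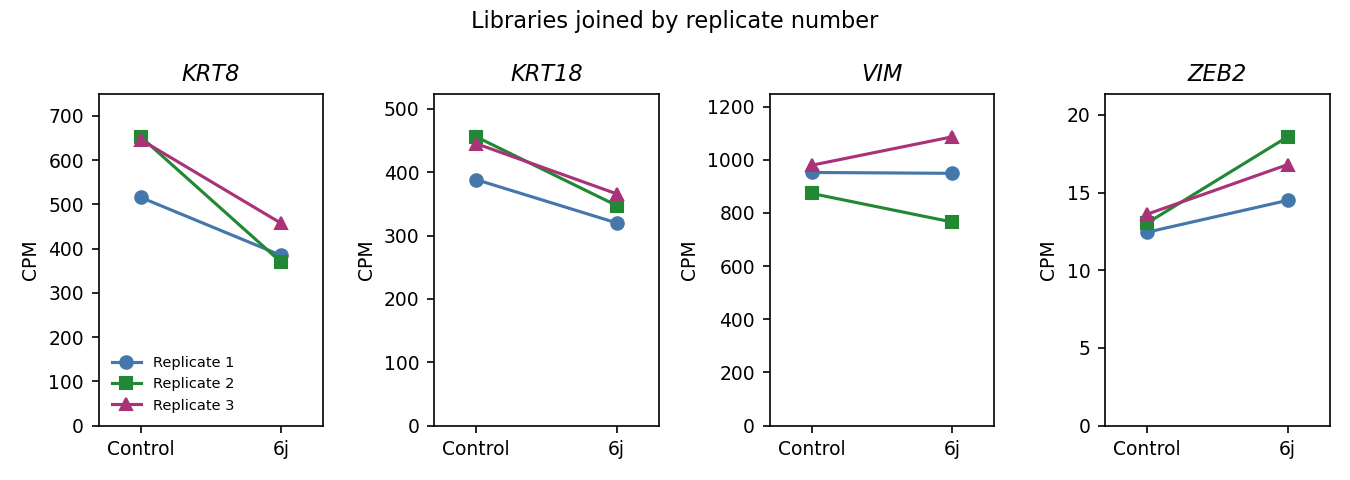
CPM of KRT8, KRT18, VIM and ZEB2 in the 6 libraries, with lines joining the non-treated and the 6j treated library of the same replicate number, each axis starting at 0. All 3 lines go down for KRT8 and KRT18 and up for ZEB2, whereas those of VIM diverge.

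The mature microRNAs of the miR-200 family are shown because ZEB1 and ZEB2 are their known targets, with bases 2 to 8 (the seed) in capitals, from RefSeq. They form 2 groups by seed, and the microRNAs themselves were not measured here.
hsa-miR-200a-3p: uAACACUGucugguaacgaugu
hsa-miR-141-3p: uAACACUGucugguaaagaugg
hsa-miR-200b-3p: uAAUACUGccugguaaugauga
hsa-miR-200c-3p: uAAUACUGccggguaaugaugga
hsa-miR-429: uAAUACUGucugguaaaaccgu
The 3′ UTRs of the principal transcripts were searched on the transcript strand for the complements of the seeds, CAGTGTT and CAGTATT. ZEB1 held 3 and 5 of them in 1938 bases, and ZEB2 held 4 and 5 in 5370 bases. Of the 838 tested genes with a 3′ UTR within 10% of the length of that of ZEB1, 23.7% held CAGTGTT and 20.4% CAGTATT. For ZEB2 the shares were 54.0% and 44.9% of 363 genes. SNAI2 held 0 and 1, and the other 7 markers held none. The following 4 sites show a site for each seed in each gene, with the match in capitals (GRCh38, transcript strand).
ZEB1, chr10:31528783-31528804, plus strand: gagatttgatttaaCAGTGTTa
ZEB1, chr10:31528563-31528584, plus strand: gtcttcaaacctggCAGTATTa
ZEB2, chr2:144388669-144388690, minus strand: ctttgcaccagcttCAGTGTTa
ZEB2, chr2:144388631-144388652, minus strand: tgaagcacccatgtCAGTATTa
A match is a description of the sequence. ZEB1 and ZEB2, which share these sites, had log2 fold changes of 0.18 and 0.35, and neither passed edgeR's quasi-likelihood test without a block.

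The 250 bases before a RefSeq start (GRCh38.p14) are printed for KRT8, the marker that fell, and for VIM, the abundant filament gene that did not pass. RefSeq promoter entries were matched for 5 of the 10 markers (CDH2, KRT8, VIM, ZEB1 and ZEB2). The motifs searched on both strands were the E-box CACCTG, the GC box GGGCGG, the TATA box TATAAA and the AP-1 site TGANTCA, and matches are in capitals.
KRT8, chr12:52926470-52926719, minus strand: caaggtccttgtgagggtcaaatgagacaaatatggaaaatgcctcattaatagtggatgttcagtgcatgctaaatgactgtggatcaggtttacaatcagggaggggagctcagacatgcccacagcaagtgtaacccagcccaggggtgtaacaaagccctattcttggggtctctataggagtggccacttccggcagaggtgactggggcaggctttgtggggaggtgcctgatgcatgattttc
VIM, chr10:17227991-17228240, plus strand: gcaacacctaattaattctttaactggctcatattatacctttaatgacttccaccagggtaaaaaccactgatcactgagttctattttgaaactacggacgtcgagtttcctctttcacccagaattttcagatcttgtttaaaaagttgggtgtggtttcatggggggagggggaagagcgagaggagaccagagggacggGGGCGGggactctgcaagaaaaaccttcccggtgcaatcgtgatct
The KRT8 window lies inside the longest extent of the gene in GENCODE, which reaches further upstream, so it does not precede every start of the gene. Which start the measured KRT8 RNA came from was not determined. Whether the window precedes the start of the principal transcript used for the levels was not checked either. The KRT8 window held none of the 4 motifs, at 50.4% GC with 1 CpG, and the VIM window held 1 GC box, at 46.0% GC with 8 CpG. Of 35116 windows of this length, 17.5% held the E-box, 42.6% the GC box, 10.7% the TATA box and 6.57% the AP-1 site. The single ZEB2 window held none of the motifs, and E-boxes were found in 2 of the 7 windows of ZEB1. That letters are not in these windows says nothing about the binding of a factor.

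The keratin genes as a family had 55 rows, of which 30 had no count and 12 were tested. Together they summed to 2080 ± 176 CPM in non-treated and 1840 ± 46.9 CPM in 6j treated cells (SD, n = 3). KRT8 and KRT18 made up 47.4%, 49.1% and 52.4% of that sum in non-treated and 38.6%, 39.8% and 43.5% in 6j treated libraries, so that the groups did not overlap. The family genes named here and among the cadherins and factors, other than the 10 markers, were chosen after their values were seen. KRT17, a keratin of basal cells, was at 505, 528 and 452 CPM in non-treated and 623, 559 and 543 CPM in 6j treated libraries, with no overlap (log2 fold change 0.22, SE 0.10, adjusted p = 0.190 by edgeR's quasi-likelihood test, 0.0192 with the replicate block). Its share of the keratin CPM was 23.8% in non-treated and 31.3% in 6j treated cells, and log2 KRT8 minus log2 KRT17 went from a mean of 0.28 to -0.51. KRT7, a type II keratin of simple epithelia like KRT8, was at 472 ± 63.3 and 400.5 ± 8.49 CPM (log2 fold change -0.24, SE 0.10, adjusted p = 0.184, 0.0330 with the block). KRT80 was at 56.2 ± 17.3 and 82.8 ± 24.3 CPM with overlapping groups (adjusted p = 0.329, 0.000193 with the block). The 1 DEG among the 12 tested keratins (3.6% of all rows were DEGs) was KRT34, a hair keratin of very low level, which rose from 0.732 ± 0.237 to 4.16 ± 1.33 CPM (log2 fold change 2.50, SE 0.37, adjusted p = 0.00821).

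**Figure D4:**
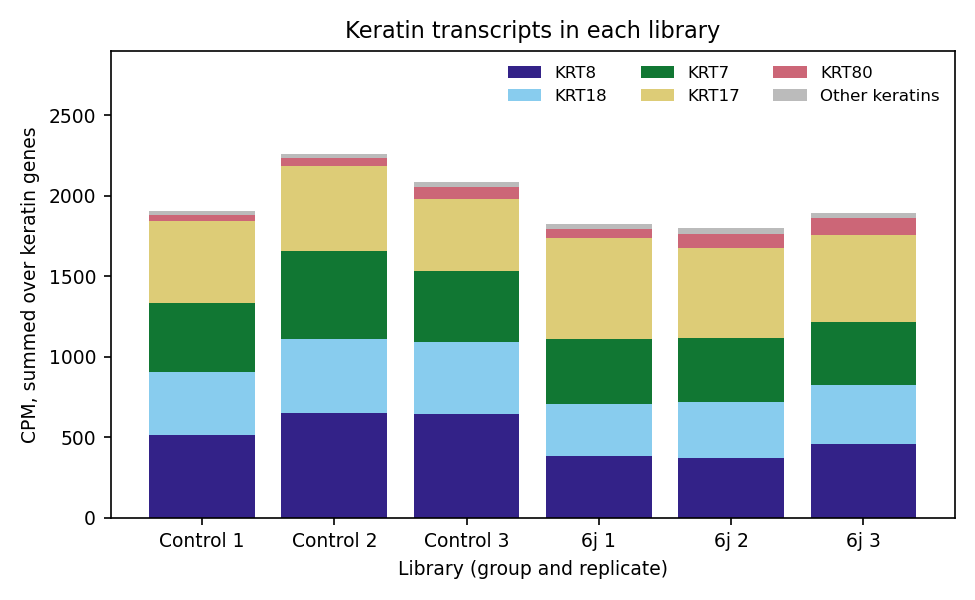
Summed CPM of the keratin genes in each library, as stacked bars from 0, with KRT8 and KRT18 at the bottom, then KRT7, KRT17, KRT80 and all other keratins. KRT8 and KRT18 take 47.4% to 52.4% of each non-treated bar and 38.6% to 43.5% of each 6j treated bar.

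Among the cadherins, 11 of 23 rows were tested and CDH2 made up 24.4% of their summed CPM in non-treated and 25.1% in 6j treated cells. The most abundant cadherin was CDH13, which is attached to the membrane by a lipid anchor, at 33.9% and 38.9%. CDH3 (P-cadherin), another epithelial cadherin, was at 13.4 ± 2.17 and 10.8 ± 2.04 CPM (SD, n = 3), with an adjusted p of 0.325 by edgeR's quasi-likelihood test. Of the 11 cadherins tested, 1 had an adjusted p under 0.05 (9.16% of all rows did). It was CDH24, which fell from 16.4 ± 0.447 to 12.0 ± 0.668 CPM (log2 fold change -0.46, SE 0.12, adjusted p = 0.0408), a call that each fit without a library lost (adjusted p = 0.0652 to 0.128). The SNAI, ZEB and TWIST factors were 7 rows, all tested, and 0 had an adjusted p under 0.05 by edgeR or by DESeq2, while 1 (ZEB2) had an unadjusted p under 0.05 (26.2% of all rows). SNAI2 made up 63.8% and 60.6% of their summed CPM, ZEB1 18.6% and 20.7%, and ZEB2 8.16% and 10.3%. TWIST1 was at 9.13 ± 0.565 and 7.67 ± 0.0712 CPM without overlap (adjusted p = 0.303), and SNAI1 at 2.03 ± 0.460 and 2.31 ± 0.231 CPM with overlap (adjusted p = 0.720).

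Beyond the 10 markers, 58 other epithelial genes were taken as a list of junction, polarity, keratin, splicing and transcription factor genes, of which 48 were tested. By edgeR 3 were DEGs (6.25%, against 3.6% of all rows), and all 3 rose, a direction that 2.48% of all rows took as DEGs. CLDN1, a tight junction strand protein, was at 6.58, 9.96 and 7.18 CPM in non-treated and 15.6, 29.9 and 21.1 CPM in 6j treated libraries (log2 fold change 1.49, SE 0.26, adjusted p = 0.0139). AP1M2, an adaptor subunit of epithelial cells that sorts proteins to the basolateral membrane, rose from 31.0 ± 5.08 to 55.8 ± 8.30 CPM (log2 fold change 0.85, adjusted p = 0.0119). ESRP1, a splicing regulator of epithelial cells, rose from 0.185 ± 0.0763 to 0.947 ± 0.188 CPM (log2 fold change 2.34, SE 0.50, adjusted p = 0.0230), on 124 counts in all 6 libraries. MAL2, a protein of apical transport, and TJP1, a tight junction scaffold, rose by less than the fold threshold (log2 fold changes 0.53 and 0.35, adjusted p = 0.0100 and 0.0211). At an adjusted p under 0.05 alone, 6 genes of the list were higher and 4 lower (4.79% and 4.37% of all rows). Over the list 25 log2 fold changes were positive and 23 negative (49.3% of all rows were negative), with a median of 0.00, as over all rows. The block called 5 DEGs, 4 higher and 1 lower (6.47% of all rows). With the block 20 of the 48 had an adjusted p under 0.05, 11 higher and 9 lower, against 26.9% of all rows in either direction. The DEG calls of CLDN1 (adjusted p = 0.0763 and 0.0519), AP1M2 (0.0622 and 0.0631) and ESRP1 (0.112 and 0.117) were lost without non-treated replicate 1 or 6j treated replicate 2. CLDN1 and ESRP1 also missed without non-treated replicate 3 (0.0570 and 0.0536) and ESRP1 without non-treated replicate 2 (0.0757). The adjusted p of TJP1 missed without any 1 non-treated library or 6j treated replicate 2 (0.0633 to 0.108), and that of MAL2 without non-treated replicate 1 or 6j treated replicate 2 (0.0625 and 0.0571).

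The list of other mesenchymal and EMT (epithelial to mesenchymal transition) pathway genes had 80 genes, of which 72 were tested. It mixes mesenchymal genes with pathway genes and inhibitors, so a fall of its genes is not by itself a fall of the mesenchymal state. By edgeR 4 were DEGs (5.56%, against 3.6% of all rows), and all 4 fell, as 1.12% of all rows did as DEGs. The block and DESeq2 each called 5, of which 4 were lower and 1 higher (6.47% and 5.38% of all rows were DEGs in these fits). The higher one with the block was BMP2, a ligand of BMP receptors named after its value was seen, with overlapping groups (log2 fold change 0.59, adjusted p = 0.000105 with the block and 0.209 without). With the block ID1 was not a DEG, and TCF4, a transcription factor named after its value was seen, was 1 of the 4 lower ones. Its log2 fold change was -0.62 (adjusted p = 0.0474 with the block and 0.203 without, edgeR's quasi-likelihood test). Of the 4 DEGs by edgeR without the block, 3 were the ID genes. Their products lack a DNA-binding region and hold other helix-loop-helix factors off DNA, and the genes respond to BMP and TGF-beta signals. ID1 was at 178, 251 and 246 CPM in non-treated and 82.4, 51.1 and 57.8 CPM in 6j treated libraries (log2 fold change -1.82, SE 0.21, adjusted p = 0.00713). The groups were far apart, although with the replicate block its adjusted p was 0.0816. ID3 fell from 264 ± 7.67 to 125 ± 23.6 CPM (log2 fold change -1.08, SE 0.13, adjusted p = 0.00360), and ID2 from 48.8 ± 0.661 to 28.8 ± 4.91 CPM (log2 fold change -0.76, adjusted p = 0.0109, and 0.0512 without non-treated replicate 1). S100A4, a calcium-binding protein of motile cells, fell from 264 ± 39.8 to 165 ± 37.4 CPM (log2 fold change -0.68, adjusted p = 0.0447). Its adjusted p passed in 1 of the 6 fits that left out a library, without 6j treated replicate 3, and was 0.0924 to 0.158 in the other 5. SMAD7, an inhibitor of TGF-beta receptors, had an adjusted p of 0.0113 at a log2 fold change of -0.58, which missed without non-treated replicate 1 (0.0512) or 6j treated replicate 2 (0.0622). At an adjusted p under 0.05 alone, 7 genes of the list were lower and 1 was higher, EZH2, a histone methyltransferase named here after its value was seen (log2 fold change 0.31, adjusted p = 0.0456), where 4.37% of all rows were lower and 4.79% higher. With the block 13 were lower and 7 higher, against 26.9% of all rows in either direction. Over the list 37 log2 fold changes were positive and 35 negative, and the median was 0.02 against 0.00 over all rows. TGFB1 (adjusted p = 0.641, and 0.00279 with the block) and FN1 (0.874), likewise named after their values were seen, did not pass without the block.

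**Figure D5:**
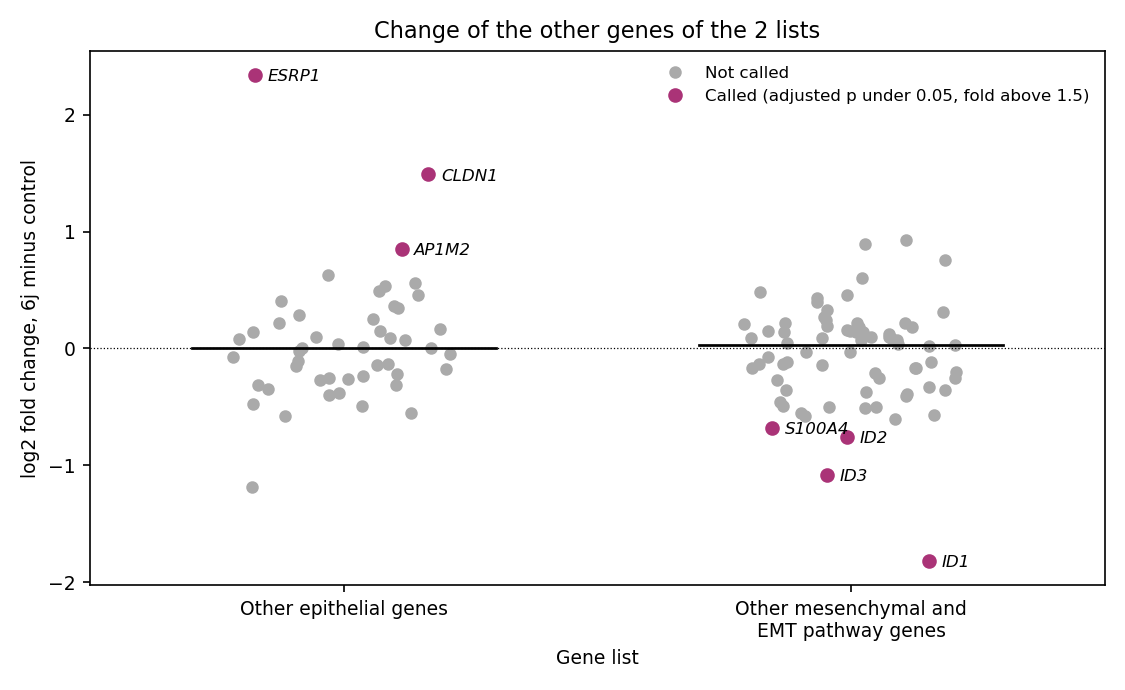
Log2 fold change (6j treated minus non-treated) of each tested gene of the other epithelial list (48 genes) and of the other mesenchymal and EMT pathway list (72 genes), with DEGs in purple and a line at each median. The 3 DEGs on the left lie above 0 and the 4 on the right below 0, while the medians are at 0.00 and 0.02. The list on the right mixes mesenchymal genes with pathway genes and inhibitors, such as the ID genes, so it has no common direction. Points are spread sideways only to keep them apart.

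The pattern of KRT8, the marker with the smallest p, was compared with that of 13358 tested rows with an Ensembl identifier by the root mean square difference of log2 CPM, centred on each gene's mean, over the 6 libraries. The 3 most alike were HIST1H3H, a histone H3 gene, at 0.059, PLK2, a polo-like kinase, at 0.075, and BUD23, a ribosomal RNA methyltransferase, at 0.078. Each was lower in every 6j treated than in every non-treated library, as KRT8 was. This and the size of their changes follow from picking them by likeness to KRT8 in these same libraries. Their log2 fold changes were -0.52, -0.56 and -0.49, with adjusted p of 0.0949, 0.0393 and 0.0190 by edgeR's quasi-likelihood test.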

How the data were processed

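RNA was sequenced from 3 non-treated and 3 6j treated MHCC-97H libraries, after selection of polyadenylated RNA. The deposited values are whole-number counts for each gene, which the authors had not normalized. The submitters' processing notes name HISAT2, StringTie and GRCh38, with no versions for the tools. Each library had fewer rows with a count of 1 (142 to 175) than with a count of 2 (557 to 692), so the counts may be rounded estimates, and they were used as deposited. Columns not used: 0.

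edgeR 4.0.16 (R 4.3.3, limma 3.58.1) fitted robust quasi-likelihood models without covariates to all rows kept by filterByExpr (about 10 counts in enough libraries, total of at least 15), with TMM factors and Benjamini-Hochberg adjustment over 15957 rows. Standard errors and intervals of log2 fold changes came from the F statistic. CPM use TMM library sizes. DESeq2 1.42.0, other normalizations, no filter, other thresholds, a replicate block and fits without 1 library were alternatives. Exact permutation tests used scipy 1.17.1 (Python 3.11.15). The methods were tested on simulated data.

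The groups share replicate numbers whose meaning the labels do not give. Deviations from the group means correlated at 0.171, 0.18 and 0.312 within a number and at -0.231 to 0.0795 between numbers. The deviations of a group cancel for each gene, so positive values within a number push those between numbers down. Whether a number pairs 2 libraries was thus not settled. The main fit had no block because the paper names no covariate, and the fit with the block is given beside it.

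The 10 markers and both lists were chosen with earlier results of these data known, and no list was given a test of its own. Of the lists, the rule named the DEGs and the 4 genes with the smallest p in each. Most alike were the 3 rows closest to the marker with the smallest p. Other genes are marked as named after their values were seen. Gene and UTR coordinates came from GENCODE version 29, and microRNAs and promoters from RefSeq. Of the antisense and pseudogene symbols searched for the markers, none had a row. Some genes of the lists are not reported here by name.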

Additional observations from a re-analysis of the deposited data

How the results depend on the processing

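The count of 574 DEGs was 1033 with the replicate block, 1136 at an unadjusted p with the same fold, 1462 at an adjusted p with no fold threshold, and 186 to 772 when 1 library was left out (186 without non-treated replicate 1, 193 without 6j treated replicate 2, 379 without non-treated replicate 3). The 0 markers called became 1 with upper quartile factors, 1 with no fold threshold, and 0 to 1 without a library (KRT8 without non-treated replicate 1 or 6j treated replicate 3). The 3 other epithelial DEGs became 5 with the block, 10 with no fold threshold, and 0 to 5 without a library (0 without non-treated replicate 1 or 6j treated replicate 2, 5 without 6j treated replicate 1). The 4 DEGs of the other mesenchymal and EMT pathway list became 8 with no fold threshold and 2 to 7 without a library (2 without non-treated replicate 1, 7 without 6j treated replicate 1 or 3). The causes were not tested. The near-zero log2 fold changes changed sign. VIM was at 0.01 with library size only and at -0.12 to 0.12 without a library, CDH2 at -0.16 to 0.06 and SNAI2 at -0.15 to 0.06. KRT8 was below 0 in all 13 alternatives (-0.69 to -0.52) and passed in 9 (adjusted p = 9.3e-05 to 0.108, edgeR or DESeq2). KRT18 passed in 2 of 13 (0.00168 to 0.186) and ZEB2 in 1 (0.0391 to 0.351). ZEB1 stayed at 0.07 to 0.25. CDH24 was lost with library size only (0.0501) and S100A4 without the filter (0.0514). DESeq2 gave no adjusted p for ESRP1. The log2 differences of CDH2 to CDH1 (0.24 to 0.85) and KRT8 to KRT18 (-0.31 to -0.20) kept their sign in 9 alternatives. Taken within replicate numbers they were 0.54 and -0.26, each with a two-sided exact permutation p of 0.25, the smallest that 3 pairs can give. Beside the changes named here and in the text, the block ended or added no call of a marker or of a named list gene. With 3 libraries a group and 1 line, dose and time, small changes of CDH1, EPCAM and KRT19 were beyond the depth.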
